A study of Mus musculus with 21 samples.

Results

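The genes for the protein subunits of the mitochondrial respiratory chain that are encoded in the nucleus were followed in colon RNA of germ-free (GF) mice. A gene was taken when its symbol in the array annotation was Sdha, Sdhb, Sdhc or Sdhd, or began with Nduf followed by a, b, c, s or v and a digit, with Uqcr, with Cox and a digit from 4 to 8, or with Atp5, and it was represented by its brightest probe. This gave 85 genes of the 32094 gene names on the day 7 array design and 84 of 36944 on the day 0 design. They are 37 genes named for complex I, 4 for complex II, 8 for complex III, 18 for complex IV (17 at day 0, where no probe carries the symbol Cox5b) and 18 for the ATP synthase. The symbols also bring in a few genes that are not chain subunits in the strict sense: the pseudogene Atp5c1-ps, Atp5s and Atp5sl, which RefSeq now calls Dmac2l and Dmac2, the supercomplex factor Cox7a2l, and Ndufa4 with its relative Ndufa4l2, which carry a complex I name although Ndufa4 is now counted with complex IV.

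The respiratory chain lies in the inner mitochondrial membrane. Complex I (NADH dehydrogenase) and complex II (succinate dehydrogenase) pass electrons from NADH and succinate to ubiquinone, complex III (cytochrome bc1) passes them on to cytochrome c, complex IV (cytochrome c oxidase) passes them to oxygen, and the ATP synthase uses the proton gradient that complexes I, III and IV build. Most subunits are encoded in the nucleus and a small set of core subunits in mitochondrial DNA. The colon epithelium is a tissue with high mitochondrial oxidation, and in colonised mice its colonocytes burn butyrate made by bacteria, which a germ-free colon lacks.

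All samples were total colon tissue of germ-free male C57BL/6J mice, labelled either germ-free *Card9*-/- (a deletion of the gene for the adaptor protein CARD9 in the whole animal) or germ-free WT. Colitis was induced with 2% dextran sulfate sodium (DSS) in the drinking water for 7 days, and RNA was taken at day 7 (4 arrays labelled GF *Card9*-/-, replicates 2, 2.1, 4 and 6, and 4 labelled GF WT, replicates 1, 4, 5 and 6) or at day 0 before DSS (7 labelled GF *Card9*-/-, replicates 1 to 7, and 6 labelled GF WT, replicates 1 to 6). The age of the mice on these arrays is not given in the sources used here, and each array holds 1 sample. Nothing in the labels says how the samples of a label were kept apart, so p-values measure only the spread between these samples. The study asked what deletion of *Card9* does in the colon without a microbiota; the comparison here is between the labels within a day, since the days were run on different array designs and day and design cannot be told apart.

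The *Card9* probe went against the labels. At day 0 its log2 signal was 8.71 to 9.24 in the 7 arrays labelled GF *Card9*-/- and 2.30 to 2.33 in the 6 labelled GF WT, where it was not well above background. At day 7 it was 7.93 to 8.57 in the 4 arrays labelled GF *Card9*-/- and 2.38 to 7.85 in those labelled GF WT, of which 1 was well above background. Whether the probe lies in the deleted part of the gene is not given in the sources used here, and whether the labels are exchanged was not tested. Were they exchanged, the sign of every difference below would turn. Every difference is therefore given by label, as the mean of GF *Card9*-/- arrays less the mean of GF WT arrays. Signals of pancreas genes stood out in GF *Card9*-/- replicates 6 and 2.1 at day 7 and in GF *Card9*-/- replicate 7 at day 0, and spots well above background ranged from 42.2% to 57.1% of an array at day 7 and from 54.5% to 64.9% at day 0.

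Members were well measured. A total of 82 of 85 genes at day 7 and 82 of 84 at day 0 were well above background on at least 50% of the arrays, and no spot was saturated. Cox8c, the testis isoform of a complex IV subunit, did not rise well above background on either day and was not tested, which left 84 tested members at day 7 and 83 at day 0.

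Promoter sequence is shown for reference because NRF-1, the ETS factor GABP (NRF-2) and YY1 are the textbook regulators of nuclear respiratory genes. The signals of members with and without the letters were not compared. RefSeq promoters (build GRCm38.p6, 250 bases before to 50 after a start) were matched for 69 of the 85 members, while 16 had no entry. The NRF-1 letters, GCGCA followed at once by its reverse complement, were in the promoters of 5 of 69 members (7.25%) and of 1.07% of all 27025 genes in the table. The ETS letters CCGGAAG were in 16 members (23.2%) and 9.93% of all genes, and the YY1 letters AAGATGGC in 11 members (15.9%) and 3.19% of all genes. Both strands were searched, the ETS and YY1 letters can overlap at AAG, and a match is a description of letters and not of a bound site. By complex, the YY1 letters were in 7 of 32 complex I and 4 of 16 ATP synthase genes and in none of the 21 matched genes of complexes II, III and IV, and the ETS letters in 2 of 3 complex II genes. Shown here are windows of 30 bases upstream of the start, for the NRF-1 match of 4 members, an ETS match in each complex and a YY1 match, with the motif in capitals (ETS as CCGGAAG or its reverse complement). Each reads on the strand of its gene, with positions in GRCm38.p6.
Atp5g2 (ATP synthase c subunit, NRF-1, chr15:102671070-102671099, minus strand): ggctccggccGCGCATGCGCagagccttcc
Atp5k (ATP synthase e subunit, NRF-1, chr5:108434430-108434459, minus strand): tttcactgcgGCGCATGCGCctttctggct
Cox6a1 (complex IV, NRF-1, chr5:115349101-115349130, minus strand): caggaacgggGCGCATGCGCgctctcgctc
Ndufa11 (complex I, NRF-1, chr17:56717692-56717721, plus strand): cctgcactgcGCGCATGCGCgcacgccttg
Ndufs3 (complex I iron-sulfur subunit, ETS, chr2:90904730-90904759, minus strand): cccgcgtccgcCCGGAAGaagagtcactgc
Sdhd (complex II, ETS, chr9:50603877-50603906, minus strand): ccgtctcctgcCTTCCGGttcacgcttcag
Uqcr11 (complex III, ETS, chr10:80406869-80406898, minus strand): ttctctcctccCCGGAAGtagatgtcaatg
Cox6b1 (complex IV, ETS, chr7:30626124-30626153, minus strand): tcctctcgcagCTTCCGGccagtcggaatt
Atp5l (ATP synthase g subunit, ETS, chr9:44920936-44920965, minus strand): acttcaccgatCTTCCGGaccaacatgaat
Atp5j (ATP synthase, YY1, chr16:84835046-84835075, minus strand): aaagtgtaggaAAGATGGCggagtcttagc

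At day 7 of DSS, most respiratory chain genes had a somewhat higher mean in the arrays labelled GF *Card9*-/-, but no single member passed the test. Of 84 tested members 68 (81.0%) had the higher mean in that label, against 50.4% of all 44643 tested probes and 52.1% of those well above background on 50% of the arrays. The median log2 difference of the members was 0.11, against 0.0013 over all tested probes. With limma and Benjamini-Hochberg adjustment 0 of 84 members passed an adjusted p of 0.05 (lowest adjusted p = 0.913), as did 0% of all probes, and 0 members had an unadjusted p under 0.05, against 3.38% of all probes. That last count depended on the arrays used, and was 7 of 84 without GF WT replicate 4, against 3.96% of all probes, and 2 of 84 without GF *Card9*-/- replicate 4, with normexp background correction and in the deposited log2 table. For 53 of the 84 members (63.1%) the 95% confidence interval of the difference lay within 1.5-fold in both directions, which was so for 29% of all tested probes and 35% of those well above background on 50% of the arrays. Without GF WT replicate 5, 52 of 84 members had the higher mean and the median was 0.03, against a median of -0.0045 over all tested probes. In bulk tissue, fewer cells of a type and less RNA per cell cannot be told apart.

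**Figure D1:**
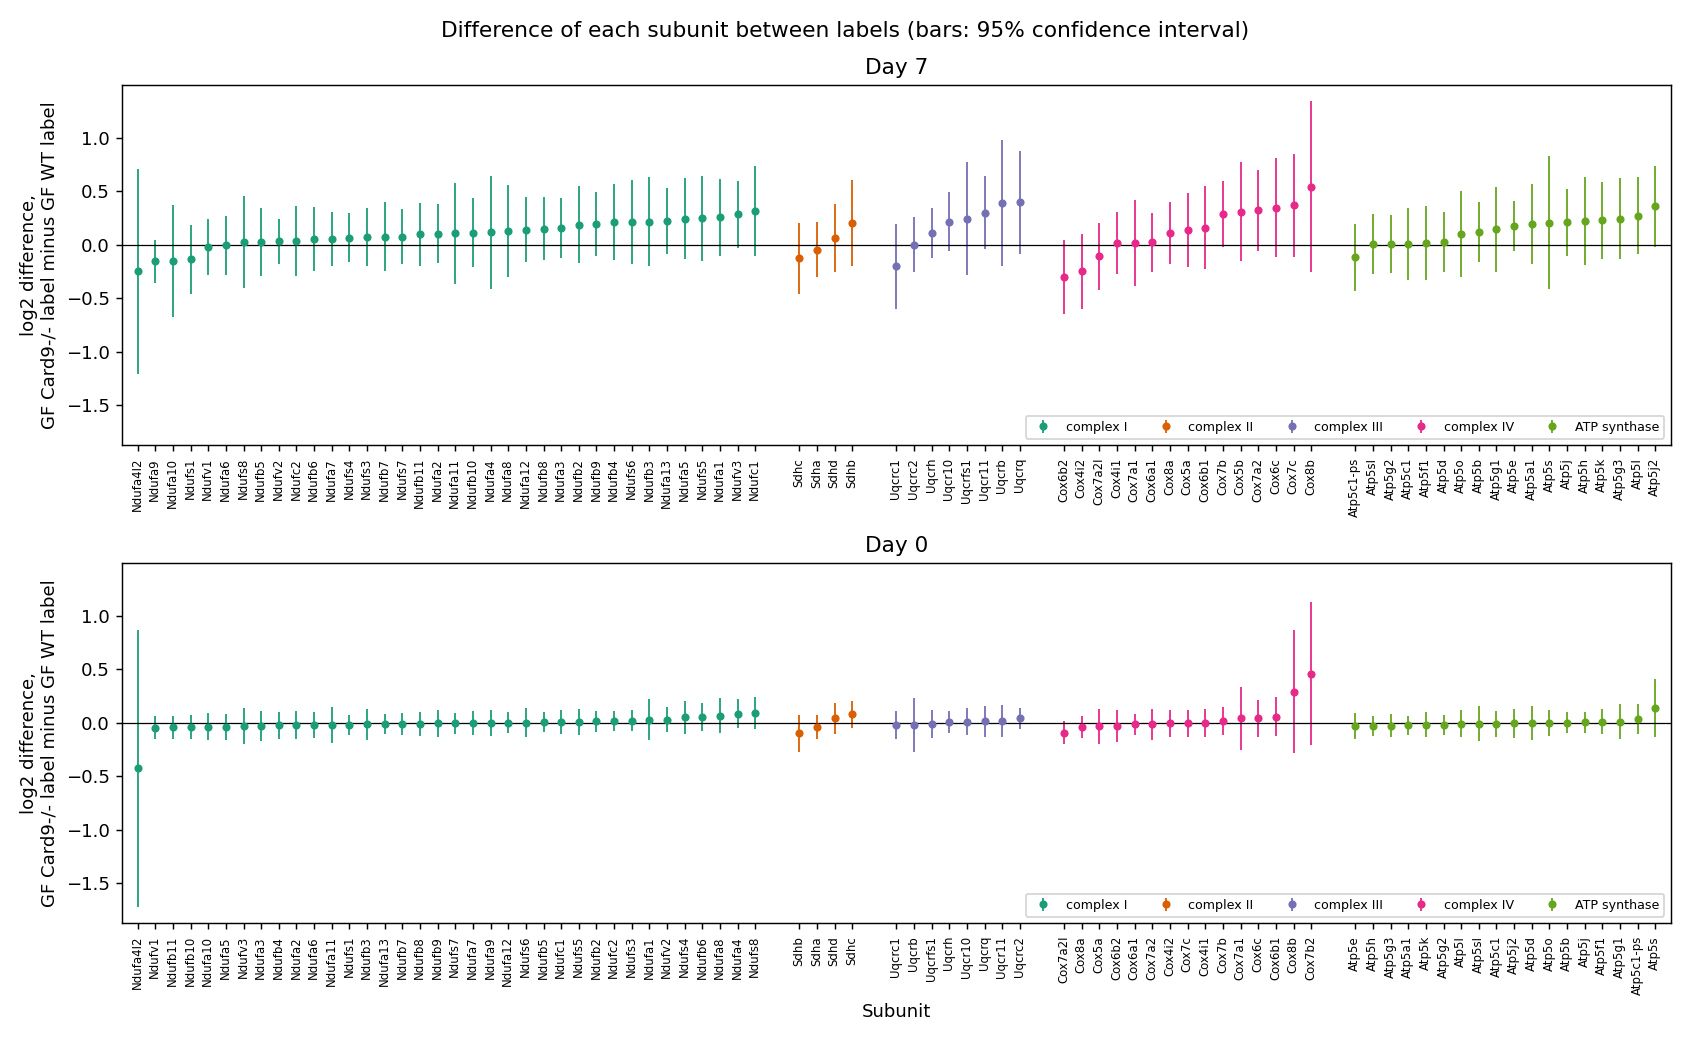
The log2 difference of each member (arrays labelled GF *Card9*-/- minus GF WT, vertical axis) is plotted with its 95% confidence interval for members well above background on at least 50% of the arrays (1 is left out of the plot), ordered by complex and size, at day 7 (top) and day 0 (bottom). Most points lie above 0 at day 7 with intervals that include 0, and day 0 intervals are narrow around 0 except for Ndufa4l2, Cox8b and Cox7b2.

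The complexes did not all look alike in their medians. The median log2 difference at day 7 was 0.23 over 8 complex III members (7 higher), 0.16 over 18 ATP synthase members (17 higher), 0.11 over 17 complex IV members (12 higher), 0.10 over 37 complex I members (30 higher) and 0.0085 over 4 complex II members (2 higher). Without GF WT replicate 5 these medians were 0.11, 0.06, 0.02, 0.03 and -0.05 in the same order. The differences between complexes were not tested.

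Complex III held some of the largest differences. Uqcrb, a small subunit at the ubiquinone site (probe at chr13:67001654-67001713, NCBI37), had log2 signals of 15.94, 16.09, 15.98 and 16.17 in GF *Card9*-/- replicates 2, 2.1, 4 and 6, and of 15.64, 16.04, 14.92 and 16.02 in GF WT replicates 1, 4, 5 and 6. Uqcrq, another small subunit that binds ubiquinone, measured 16.43, 16.74, 16.70 and 16.75 against 16.11, 16.61, 15.78 and 16.55. In both genes GF WT replicate 5 was lowest and replicate 1 next, while GF WT replicates 4 and 6 lay among the arrays labelled GF *Card9*-/-. The log2 difference was 0.39 (SE 0.25, adjusted p = 0.913) for Uqcrb and 0.39 (SE 0.21) for Uqcrq, and without GF WT replicate 5 it was 0.15 and 0.23. The core protein Uqcrc1 ran the other way, with means of 13.37 ± 0.26 (SD, n = 4) in GF *Card9*-/- and 13.58 ± 0.21 (SD, n = 4) in GF WT, and GF WT replicate 5 was its highest array at 13.87. Its difference of -0.20 was -0.11 without that array and -0.09 without GF *Card9*-/- replicate 4.

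In complex IV, GF WT replicates 5 and 1 were again the lowest arrays of Cox7c. Cox7c, a small membrane subunit, had log2 signals of 15.19, 15.20, 15.07 and 15.21 in the GF *Card9*-/- arrays and of 14.66, 15.21, 14.28 and 15.04 in GF WT replicates 1, 4, 5 and 6. Its log2 difference was 0.37 (SE 0.21), and 0.19 without GF WT replicate 5. Cox6c, Cox7a2 and Cox5b had differences of 0.35, 0.32 and 0.31, which were 0.19, 0.19 and 0.12 without that array. Cox7b had the lowest unadjusted p of all members (0.0618, difference 0.29, SE 0.13), and its difference was 0.19 without GF WT replicate 5. Cox4i1 and Cox6a1, the common isoforms of their subunits, differed by 0.01 and 0.02, and both signs turned with single arrays left out (lowest values -0.03 and -0.06). Cox7a2l, which helps complexes III and IV to associate, had the lower mean (-0.11, SE 0.13), and -0.01 without GF *Card9*-/- replicate 6.

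Among ATP synthase genes, Atp5j2 (subunit f) measured 16.43, 16.65, 16.63 and 16.52 in the GF *Card9*-/- arrays and 16.10, 16.49, 15.83 and 16.37 in GF WT replicates 1, 4, 5 and 6. The log2 difference was 0.36 (SE 0.16, 95% interval -0.02 to 0.74), and 0.23 without GF WT replicate 5. Atp5l (subunit g) measured 15.95, 16.10, 16.20 and 16.11 against 15.80, 16.00, 15.44 and 16.03, a difference of 0.27 (SE 0.15), and 0.14 without that array. Both are small membrane subunits, and GF WT replicates 5 and 1 were the lowest arrays of each. The alpha and beta subunits, Atp5a1 and Atp5b, had differences of 0.19 and 0.12, and of 0.09 and 0.06 without GF WT replicate 5. The pseudogene Atp5c1-ps was the only one of the 18 with the lower mean (-0.12, SE 0.13), and it was at -0.04 without GF *Card9*-/- replicate 4. Its probe may also bind transcripts of the parent gene Atp5c1, so its value is uncertain.

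Complex I held both members whose labels did not overlap, which is 2 of 84 (2.38%) against 2.13% of all tested probes (1.08% higher and 1.05% lower in GF *Card9*-/-). Ndufv3, an accessory subunit of the NADH-binding part (probe at chr17:31668209-31668268, NCBI37), measured 15.92, 15.99, 16.18 and 16.00 in the GF *Card9*-/- arrays and 15.75, 15.89, 15.45 and 15.87 in the GF WT arrays. Its difference was 0.28 (SE 0.13, unadjusted p = 0.0707, adjusted p = 0.913), and 0.18 without GF WT replicate 5. Of the 3 tested probes of Ndufv3 2 had the higher mean, and the lowest difference among them was -0.10. Ndufa9, an accessory subunit near the ubiquinone site (probe at chr6:126771996-126772055, NCBI37), measured 13.27, 13.36, 13.33 and 13.35 against 13.52, 13.43, 13.47 and 13.51. This is a difference of -0.16 (SE 0.09, unadjusted p = 0.112), with the GF *Card9*-/- arrays lower, and it was -0.16 without GF WT replicate 5 as well. Ndufc1, a small membrane subunit, had the largest difference of the complex at 0.31 (SE 0.18): 15.15, 15.19, 15.50 and 15.34 against 14.97, 15.28, 14.54 and 15.14, and 0.16 without GF WT replicate 5. Ndufa10 had the lower mean by -0.16, but the sign turned to 0.04 without GF *Card9*-/- replicate 4. Ndufs1 had the lower mean by -0.14, and by -0.04 without GF WT replicate 1.

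Complex II, which sits in both the chain and the citric acid cycle, has 4 subunits. Sdhb, its iron-sulfur subunit, measured 15.68, 15.89, 16.12 and 15.83 in the GF *Card9*-/- arrays and 15.76, 15.91, 15.26 and 15.78 in the GF WT arrays. Sdhc, a membrane anchor, measured 13.64, 13.82, 13.92 and 13.76 against 14.24, 13.75, 13.89 and 13.76. The labels overlapped in both, with differences of 0.20 (SE 0.17) and -0.13 (SE 0.14), and the Sdhb difference was 0.06 without GF WT replicate 5, and that of Sdhc -0.02 without GF WT replicate 1. Over the 10 nuclear-encoded subunits called core subunits here, not all of them catalytic, 6 had the higher mean and 4 (Ndufs1, Ndufv1, Sdha and Uqcrc1) the lower. The signs of Ndufv1 and Sdha turned with single arrays left out (0.02 for each without GF *Card9*-/- replicate 6).

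**Figure D2:**
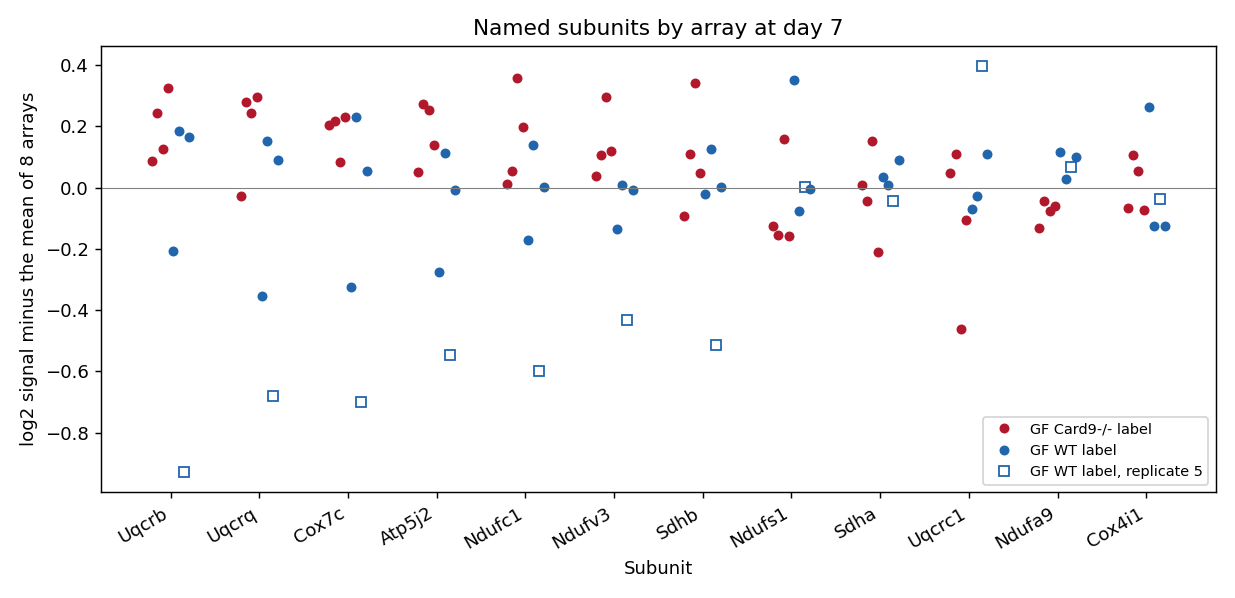
Log2 signal of 12 members at day 7 minus the mean of the 8 arrays (vertical axis), with 1 point for each array, coloured by label and with GF WT replicate 5 drawn as an open square. The square is the lowest point for the 7 members on the left, from Uqcrb to Sdhb, and not for Ndufs1, Sdha, Uqcrc1, Ndufa9 and Cox4i1.

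One array carried much of the day 7 pattern. GF WT replicate 5 was the lowest of the 8 arrays for 56 of 82 members (68.3%), while it was lowest for 27.2% of all 27199 probes well above background on 50% of the arrays. A score was formed for each array as the mean over the 82 members of the log2 signal minus the mean of that member. The score was -0.28 in GF WT replicate 5 and -0.02, 0.04 and 0.04 in GF WT replicates 1, 4 and 6, and it was 0.02, 0.08, 0.11 and 0.01 in GF *Card9*-/- replicates 2, 2.1, 4 and 6. The 2 labels overlapped in this score. GF *Card9*-/- replicate 4 stood at the other end and was the highest array for 37 members (45.1%, against 17.8% of all probes).

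The low array was low in every complex. The score of GF WT replicate 5 was -0.39 in complex III, -0.33 in the ATP synthase, -0.28 in complex IV, -0.23 in complex I and -0.21 in complex II, and in each it was the lowest of the 8. Set against the median of the other 7 arrays, its log2 signal differed by -0.37 in the median member and by -0.04 in the median of all 27199 probes. Members spread widely around that: the gap was -1.09 for Uqcrb, -0.90 for Cox7c, -0.86 for Cox6c and -0.85 for Uqcrfs1, the Rieske iron-sulfur protein, and it was 0.42 for Uqcrc1, 0.46 for Cox4i2 and 0.89 for Ndufa4l2.

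Markers of several cell types also stood at the end of their range in GF WT replicate 5. The colonocyte score (6 genes, among them Slc26a3, Car1 and Aqp8) was -0.85 and the epithelial score (7 genes) -0.67 in GF WT replicate 5, both the lowest of the 8 arrays, and the smooth muscle score (8 genes, among them Acta2 and Myh11) was 1.15, the highest. The small intestine marker score of that array was -2.09, the lowest, and its macrophage marker score 0.97, the highest. The order of the other arrays was not the same for members and markers. GF *Card9*-/- replicate 4 had the highest member score (0.11) beside a smooth muscle score of 0.63, the second highest, and a colonocyte score of -0.04. GF WT replicate 1 had the second lowest member score (-0.02) beside a smooth muscle score of -1.10. Over the labels, colonocyte markers had the higher mean in GF *Card9*-/- in 6 of 6 genes, with a summed signal of 429658 to 691058 against 194764 to 576614 in GF WT. Epithelial markers were higher in 5 of 7, with sums of 452189 to 612739 against 413142 to 565309. Smooth muscle markers were higher in 0 of 8, with sums of 154821 to 724162 against 206647 to 792043. All 21 of these markers were well above background on at least 1 array, and the labels overlapped in each sum. Their part in the values of the respiratory chain was not tested.

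**Figure D3:**
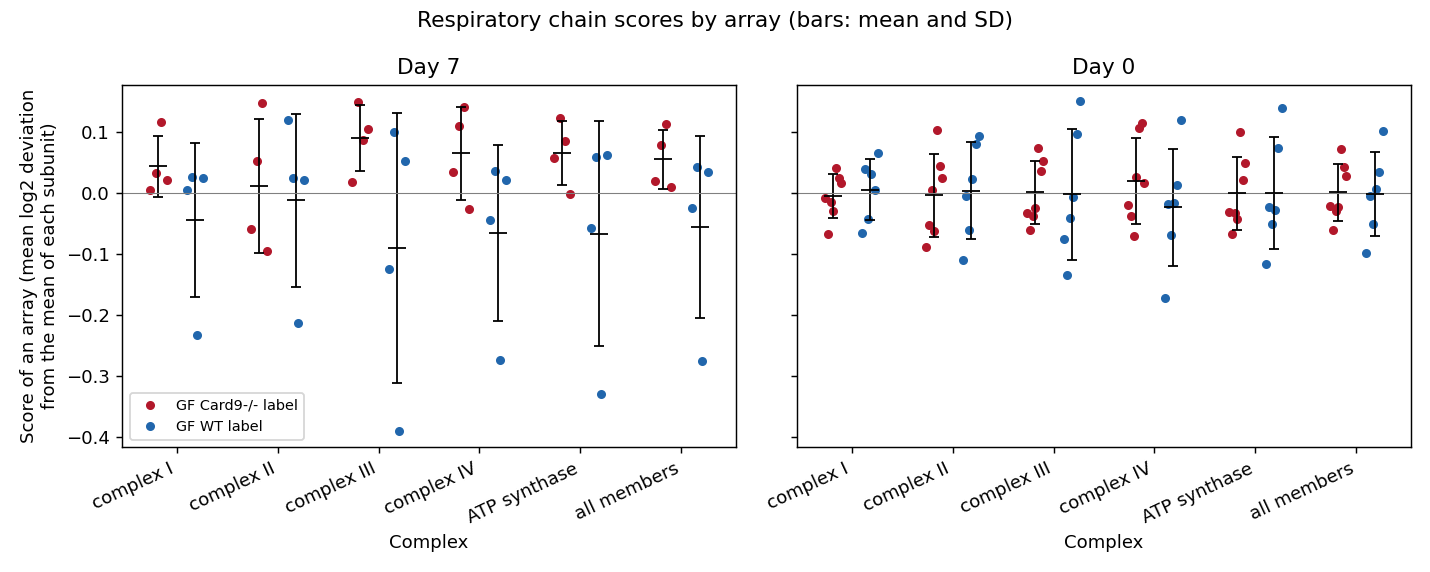
Score of each array (vertical axis, mean log2 deviation from each member's mean over the arrays of the day) for the 5 complexes and for all 82 members, with 1 point for each array, coloured by label, and bars for mean and SD, at day 7 (left) and day 0 (right). At day 7 the lowest point of every set is GF WT replicate 5, and at day 0 the labels lie over each other in all sets.

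GF WT replicate 5 did not have the lowest score over the subunits encoded in mitochondrial DNA (mtDNA), although it was the lowest array for mt-Nd6. All 13 had the higher mean in the arrays labelled GF *Card9*-/- at day 7, against 50.4% of all tested probes, with a median of 0.23. In limma 0 of 13 passed an adjusted p of 0.05, as did 0% of all probes. An unadjusted p under 0.05 was found for 1 of 13, against 3.38% of all probes. Their score was -0.06 in GF WT replicate 5 and lowest, at -0.41, in GF WT replicate 1, while it was 0.41, 0.10, -0.23 and 0.32 in GF *Card9*-/- replicates 2, 2.1, 4 and 6. The array of the highest score, GF *Card9*-/- replicate 2, had the most spots well above background (57.1%) and GF WT replicate 1 the fewest (42.2%). The neutrophil and T cell marker scores (over 3 and 4 genes) were highest in GF *Card9*-/- replicates 6 (0.57 and 1.01) and 2 (0.52 and 0.63). Of each list 5 of 5 genes had the higher mean in GF *Card9*-/-, with summed signals of 38153 to 51802 against 36394 to 44636 for neutrophils and of 2021 to 3416 against 2014 to 2227 for T cells. The part of these in the mtDNA values was not tested. Without GF WT replicate 5, 13 of 13 had the higher mean as well. Its absence lowered the differences of mt-Nd3 (0.29 to 0.21), mt-Nd4 (0.20 to 0.14), mt-Cytb (0.22 to 0.16) and mt-Co2 (0.17 to 0.11). It also lowered those of mt-Nd2, mt-Nd6 and mt-Co3. The differences of mt-Nd1, mt-Nd4l, mt-Nd5, mt-Co1, mt-Atp6 (0.36 to 0.57) and mt-Atp8 rose. The largest difference was in mt-Nd6, a complex I subunit: 9.11, 8.81, 8.42 and 8.84 in the GF *Card9*-/- arrays against 7.77, 8.36, 7.69 and 8.63 in the GF WT arrays, a difference of 0.68 (SE 0.26, unadjusted p = 0.0304, adjusted p = 0.913). Over all settings the mt-Nd6 difference ran from 0.14 to 0.85. These genes are transcribed together from 1 small genome, so they are not independent of each other.

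Genes around the chain were counted in the same way at day 7, and 0 of them passed an adjusted p of 0.05 or had an unadjusted p under 0.05 in limma. Of all tested probes 0% and 3.38% did, and 50.4% had the higher mean. Of 42 tested assembly factors, which build the complexes, 28 had the higher mean (median 0.05) and 18 had it without GF WT replicate 5, and the one with the largest difference was Atpaf1 (0.50, SE 0.46). The Atpaf1 probe was well above background on only 1 of 8 arrays, so this value carries little information. Of 16 regulators of mitochondrial biogenesis 6 were higher (median -0.05, and -0.09 without GF WT replicate 5), the largest being Esrrg, an oestrogen-related nuclear receptor (-0.35, SE 0.43), which was -0.06 without GF WT replicate 1. Of 16 genes of pyruvate dehydrogenase and the citric acid cycle 6 were higher (median -0.04, and -0.03 without that replicate). Idh3a, a subunit of isocitrate dehydrogenase, had the largest difference there at -0.31 (SE 0.14): 12.86, 13.08, 12.88 and 12.92 against 13.41, 13.01, 13.48 and 13.09. Of 15 glycolysis genes 10 were higher (median 0.04, and 0.02 without that replicate), the largest difference being that of the muscle phosphofructokinase Pfkm (-0.46, SE 0.23), which was -0.30 without GF WT replicate 5. Of 6 other subunits and carriers 5 were higher (median 0.17), with 2010107E04Rik, a small ATP synthase protein, at 0.37 (SE 0.19). Without GF WT replicate 5, 4 of the 6 were higher, with a median of 0.07, and 2010107E04Rik was at 0.20.

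At day 0, before DSS, no difference between the labels was detectable for any tested member. With limma 0 of 83 tested members passed an adjusted p of 0.05 (lowest adjusted p = 0.910), against 0.0253% of all 47410 probes, and 0 had an unadjusted p under 0.05, against 5.84%. A total of 34 of 83 members had the higher mean in the arrays labelled GF *Card9*-/-, against 57% of all probes, and the median difference was -0.0063. When arrays were scaled to their 75th percentile instead, 75 of 83 were higher with a median of 0.04, so this count has no settled direction. The medians of the complexes ran from -0.0087 in the ATP synthase to 0.0052 in complex III. The median SE of a member was 0.06 at day 0 and 0.14 at day 7. For 79 of 83 members (95.2%) the 95% interval lay within 1.5-fold in both directions, against 59.5% of all probes and 72.9% of those well above background on 50% of the arrays.

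Beyond the isoforms described further on, the largest differences of each complex at day 0 were small. In complex I, Ndufs8, an iron-sulfur subunit, ranged from 15.11 to 15.32 in the 7 GF *Card9*-/- arrays and from 14.94 to 15.34 in the 6 GF WT arrays (difference 0.09, SE 0.07, and 0.05 without GF WT replicate 2). In complex II, Sdhb had a lowest, median and highest value of 15.87, 16.06 and 16.18 in GF *Card9*-/- and of 15.98, 16.16 and 16.39 in GF WT (difference -0.10, SE 0.08, and -0.06 without GF WT replicate 6). Sdhc differed by 0.08 (SE 0.06), and in complex III Uqcrc2 by 0.04 (SE 0.04, and 0.02 without GF WT replicate 1) and Uqcrc1 by -0.02 (SE 0.06). In the ATP synthase group the largest were Atp5s (0.13, SE 0.12, and 0.08 without GF WT replicate 1) and the pseudogene Atp5c1-ps (0.03, SE 0.06), and the other 16 members lay between -0.03 and 0.01. All 10 core subunits had the lower mean in GF *Card9*-/- (median -0.02), but 5 of 10 had the higher mean without GF WT replicate 6 and 9 of 10 under 75th percentile scaling. No member's labels were free of overlap, against 0.458% of all probes. Cox7a2l had the lowest unadjusted p of all members (0.0766, difference -0.10, SE 0.05).

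The scores of the day 0 arrays spread from -0.10 to 0.10, while the label means were 0.0012 ± 0.047 (SD, n = 7) for GF *Card9*-/- and -0.0017 ± 0.069 (SD, n = 6) for GF WT. GF WT replicate 6 was the highest array for 37 of the 78 members with a value on every array (47.4%, against 15.6% of all probes), and GF WT replicate 1 the lowest for 32 (41%, against 10.73% of all probes). The 5 highest scores were 0.10 in GF WT replicate 6, 0.07 in GF *Card9*-/- replicate 5, 0.04 in GF *Card9*-/- replicate 6, 0.03 in GF WT replicate 5 and 0.03 in GF *Card9*-/- replicate 7, so both labels were among them. The 3 highest of these were also the 3 arrays of 1 slide. The other 8 arrays ran from 0.01 in GF WT replicate 4 down to -0.10 in GF WT replicate 1.

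Those same 5 arrays were also the 5 with the lowest smooth muscle scores, which were -1.24, -2.06, -1.37, -0.67 and -0.71 in the order just given, while GF WT replicate 1 had 1.27. They were the 5 arrays with the fewest spots well above background, at 57.5%, 54.5%, 59.6%, 59.1% and 58.0%, while GF WT replicate 1 had 64.9%. They were also the 5 with the highest assembly factor scores. GF WT replicate 6 differed from the other 4 in having the lowest colonocyte score of the day (-0.87), while its summed colonocyte signal, which follows the brightest genes where the score weighs each gene equally, was the highest of the day at 996144. It also had the highest small intestine score (2.56). At day 0 smooth muscle markers had the higher mean in GF *Card9*-/- in 0 of 8 genes, with sums of 113575 to 1120020 against 190599 to 1018500, and all 8 were well above background. Macrophage markers were higher in 0 of 6, with sums of 6061 to 12684 against 4997 to 17570, and all were well above background. Their part in the scores of the respiratory chain was not tested.

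**Figure D4:**
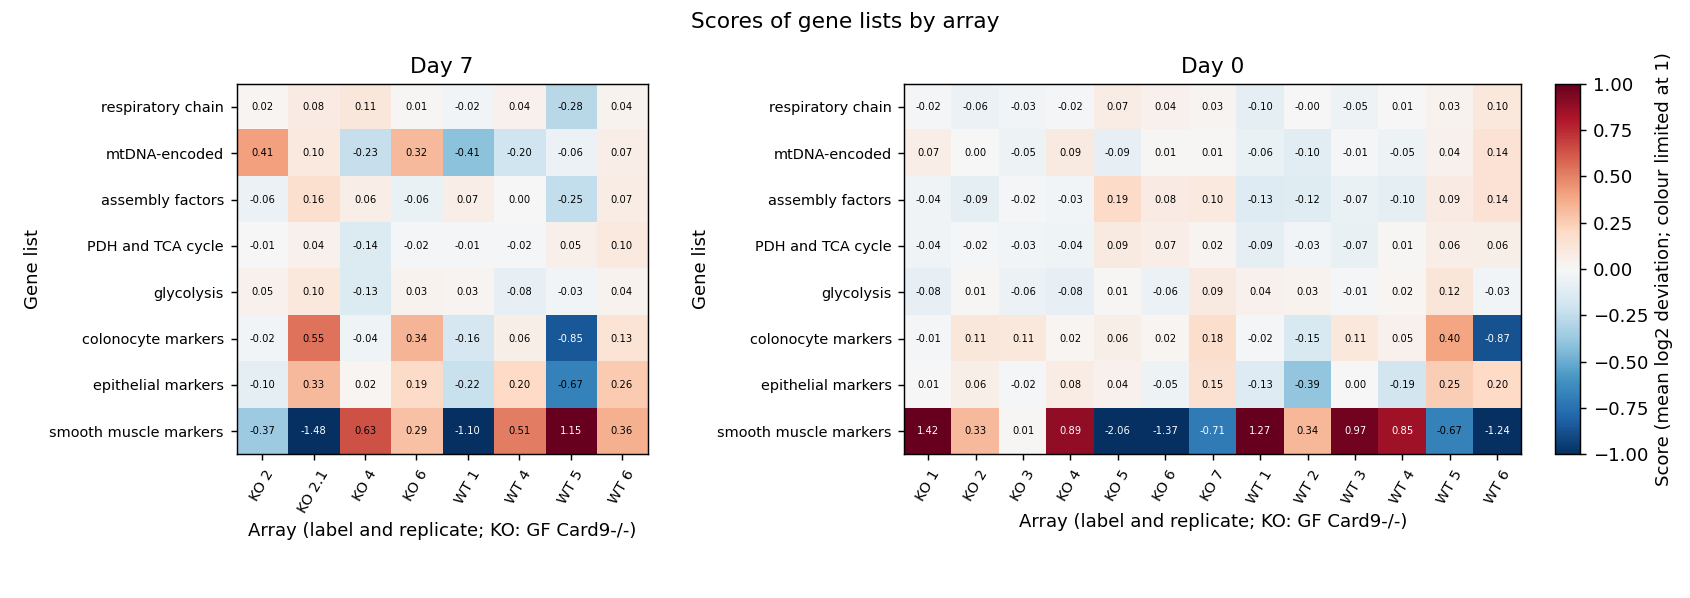
Scores of the respiratory chain members, of related gene lists and of cell type markers in every array (columns, label and replicate; KO stands for the label GF *Card9*-/-), as mean log2 deviation from the mean of the day, at day 7 (left) and day 0 (right). The respiratory chain score is lowest at day 7 in WT 5, where the colonocyte score is -0.85 and the smooth muscle score 1.15.

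Around the chain, Pprc1 and Ndufaf4 had lower p-values at day 0 than any member. Pprc1, a coactivator of the PGC-1 family that acts on nuclear respiratory genes, had a lowest, median and highest log2 signal of 10.62, 10.77 and 10.95 in the 7 arrays labelled GF *Card9*-/- and of 9.998, 10.22 and 10.49 in the 6 labelled GF WT. The labels did not overlap, the difference was 0.55 (SE 0.08, 95% interval 0.37 to 0.73), and it missed the threshold at adjusted p = 0.0630. The threshold was passed with normexp background correction (adjusted p = 0.0349), in the deposited log2 table (0.0448), with only probes well above background (0.0451) and without GF WT replicate 3 (0.0380), and its adjusted p over all settings ran from 0.0349 to 1. Ndufaf4, a complex I assembly factor, had 11.39, 11.50 and 11.71 against 10.98, 11.28 and 11.36, without overlap. The difference was 0.31 (SE 0.08, unadjusted p = 0.00165, adjusted p = 0.331). At day 7, by other probes, Ndufaf4 differed by -0.07 (SE 0.12) and Pprc1 by 0.05 (SE 0.33). Each had the largest difference of its list: 37 of 43 assembly factors had the higher mean (median 0.04) and 12 of 16 biogenesis regulators (median 0.04), against 57% of all probes. Under 75th percentile scaling these counts were 39 and 12, and with 1 array left out they ran from 28 to 39 and from 10 to 13. In limma 0 of either list passed an adjusted p of 0.05, and 1 of each had an unadjusted p under 0.05, against 5.84% of all probes.

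In the remaining lists no gene passed an adjusted p of 0.05 at day 0, and 4 genes had an unadjusted p under 0.05 in limma, which was so for 5.84% of all probes. Of 11 mtDNA-encoded subunits on this design 6 had the higher mean (median 0.01), the largest difference being mt-Nd2 (0.07, SE 0.10), which was 0.02 without GF *Card9*-/- replicate 4 and 0.12 without replicate 3 of that label. Of 16 pyruvate dehydrogenase and citric acid cycle genes 9 were higher (median 0.01), the largest being Dlat (0.15, SE 0.11), which was 0.08 without GF WT replicate 6. Pdhb (0.13, unadjusted p = 0.027) and Ogdh (-0.10, unadjusted p = 0.0486) were the genes of this list with an unadjusted p under 0.05 in limma. Of 6 other subunits and carriers 2 were higher (median -0.01), the largest being cytochrome c, Cycs (0.05, SE 0.06), at 0.02 without GF *Card9*-/- replicate 5 and 0.08 without GF WT replicate 6. Leaving out the latter array gave 10 of the 11 mtDNA-encoded subunits and 6 of these 6 genes the higher mean. Of 15 glycolysis genes 3 were higher and 12 lower (median -0.08, against 57% of all probes higher). The largest difference was that of Hk2 (0.29, SE 0.23), one of the 3, and it was 0.09 without GF WT replicate 6. Pkm (-0.16, unadjusted p = 0.0155) and Pfkp (-0.15, unadjusted p = 0.0218) were the 2 genes with an unadjusted p under 0.05 in limma. Under 75th percentile scaling 10 of 11 mtDNA-encoded subunits, 6 of 6 other subunits and carriers and 5 of 15 glycolysis genes had the higher mean.

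The isoforms known for restricted tissues held the members that varied most from array to array. Ndufa4l2, a relative of Ndufa4 known as a hypoxia-inducible gene (probe at chr10:126954149-126954208, NCBI37), spanned 3.19 log2 units over the 13 arrays of day 0. It was lowest in the same 5 arrays as the smooth muscle markers: 5.66 in GF WT replicate 5, 5.81 in GF *Card9*-/- replicate 5, 6.00 in GF WT replicate 6, 6.42 in GF *Card9*-/- replicate 7 and 6.96 in GF *Card9*-/- replicate 6, and highest in GF WT replicate 1 at 8.85. At day 7 it was highest in GF WT replicate 5 (8.12) and lowest in GF *Card9*-/- replicate 2.1 (6.17), the arrays with the highest and the lowest smooth muscle score (1.15 and -1.48). Between these ends the orders were not the same, as GF WT replicate 1 had the second lowest smooth muscle score (-1.10) and 7.57 for Ndufa4l2. Its difference between labels was -0.43 (SE 0.60) at day 0, and from -0.80 to -0.17 with 1 array left out (GF WT replicates 5 and 1). At day 7 it was -0.25 (SE 0.41), but -0.03 without GF WT replicate 5. Leaving out GF *Card9*-/- replicate 2.1 turned its sign (0.10). The labels overlapped at both days. The array where Ndufa4l2 was highest at day 7 was the one where 56 of 82 members were at their lowest.

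The complex IV isoforms were each at their own level. Cox7a1, the heart and skeletal muscle isoform of subunit 7a, was well above background on all 21 arrays, at 14.51 ± 0.19 (SD, n = 4) in GF *Card9*-/- and 14.50 ± 0.28 (SD, n = 4) in GF WT at day 7, with differences of 0.02 (SE 0.17) at day 7 and 0.04 (SE 0.14) at day 0. The sign at day 7 was negative with normexp, in the deposited table and without GF WT replicate 5 (-0.05), and that at day 0 without GF WT replicate 1 (-0.02). Cox8b, the muscle and brown fat isoform of subunit 8, had the largest difference of all members at day 7 (0.54, SE 0.34): 9.33, 10.52, 10.34 and 9.48 in the GF *Card9*-/- arrays and 9.11, 9.47, 8.99 and 9.95 in the GF WT arrays, which overlap. It was 0.34 without GF *Card9*-/- replicate 2.1. The white adipocyte score was 1.79 and 0.78 in GF *Card9*-/- replicates 2.1 and 4, where Cox8b was highest in that label, and -1.84 in GF WT replicate 5, where it was lowest. White adipocyte markers had the higher mean in GF *Card9*-/- in 7 of 8 genes, with sums of 23943 to 108373 against 16297 to 70477, while Lep was never well above background at that day. Ucp1, the defining gene of brown fat, was never well above background at either day. At day 0 the difference of Cox8b was 0.29 (SE 0.26), and it was 0.15 without GF *Card9*-/- replicate 6 and 0.51 without GF WT replicate 6. The part of fat cells in these values was not tested.

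The other isoforms were dim. Cox6b2, known from testis, measured 7.29, 7.37, 7.71 and 7.18 in the GF *Card9*-/- arrays of day 7 and 7.58, 7.63, 7.92 and 7.64 in the GF WT arrays, a difference of -0.31 (SE 0.15, unadjusted p = 0.0762), and at day 0 it differed by -0.03 (SE 0.07). Cox4i2, the isoform of subunit 4 known from lung and from oxygen sensing, differed by -0.25 (SE 0.15) at day 7, which was -0.15 without GF WT replicate 5, and by -0.01 (SE 0.06) at day 0. Cox6a2, a heart and muscle isoform, was well above background on only 3 of 8 arrays at day 7 and 4 of 13 at day 0, with differences of -0.49 (SE 0.68) and -0.02 (SE 0.46), and the day 7 value was -0.10 without GF WT replicate 5. Cox7b2, a testis isoform, was measured by different probes on the 2 days, so its levels and detection are not compared between them. It rose well above background on 0 of 8 arrays at day 7, and was well above it on 11 of 13 at day 0, where it ranged from 4.35 to 6.29 in GF *Card9*-/- and from 4.41 to 5.62 in GF WT (difference 0.46, SE 0.31). At day 7 5 of 7 tested isoforms had the lower mean in GF *Card9*-/-, and 3 of the 5 that were well above background on at least 50% of the arrays.

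**Figure D5:**
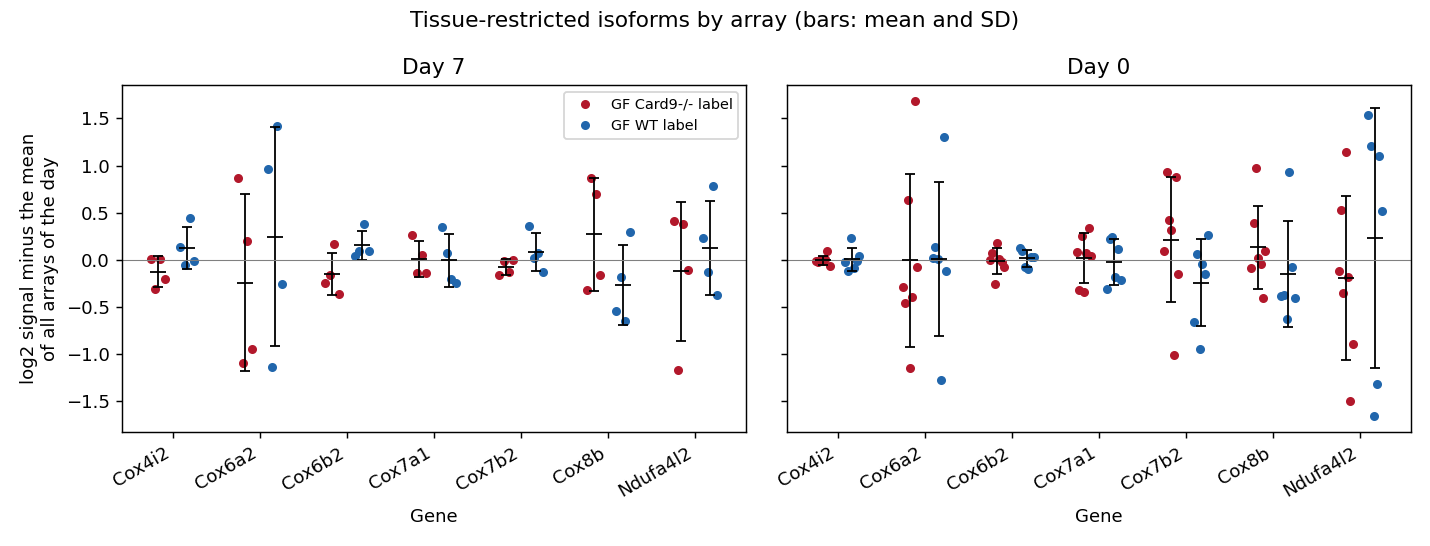
Log2 signal of 7 tissue-restricted isoforms minus the mean of that gene over all arrays of the day (vertical axis), with 1 point for each array, coloured by label, and bars for mean and SD, at day 7 (left) and day 0 (right). Ndufa4l2, Cox6a2, Cox8b and Cox7b2 spread over more than 1 log2 unit within a label at day 7 or day 0, and the labels overlap in every isoform.

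Whether the difference between labels was itself different between the days could be tested for the 64 members with a probe on both designs that was tested at both days, among 23633 such probes. Each member entered by the brightest of these shared probes, which was the probe described above for day 7 in 58 members and another one in 6, Atp5l among them. With limma 0 of 64 members passed an adjusted p of 0.05, as did 0% of all probes, and 3 had an unadjusted p under 0.05, against 7.14% of all probes. That last count was 0 without GF WT replicate 5 of day 7 and under 75th percentile scaling. It was 4 with normexp background correction and in the deposited log2 table. The day 7 difference was the more positive one for 52 of 64 members, with a median of 0.12, against 51.4% of all shared probes, with a median of 0.01. Without GF WT replicate 5 of day 7 it was the more positive one for 38 of 64 (59.4%), with a median of 0.05. In that setting this was so for 49.7% of all shared probes, with a median of -0.0022. The lowest unadjusted p was that of Atp5l by this other probe (0.0371, difference of the differences 0.27, SE 0.12, adjusted p = 0.653), followed by Ndufv3 (0.0376) and Ndufa13 (0.0498).

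Several members had more than 1 tested probe, which gives a check within the arrays. At day 7 28 members had several probes and in 21 of them all probes had the same sign of difference. Signs were mixed in Ndufv3 (-0.10 to 0.28), Cox7c (-0.02 to 0.37), Sdhc (-0.13 to 0.08), Ndufb5, Ndufb11, Atp5g1 and Atp5f1. The 2 probes of Sdhb were at 0.0022 and 0.20. At day 0 there were 33 such members and the signs were the same in 10. No probe of these members had an unadjusted p under 0.05 at either day.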

How the data were processed

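Colon RNA was measured on 21 single-colour Agilent arrays of 2 designs (8 arrays at day 7, 13 at day 0). The authors quantified spots with Agilent Feature Extraction 10.7.3.1, and the deposited intensity (processed signal) is background-subtracted but not normalized between arrays. For detection, the p-value against background that the authors deposited for every spot was used. The authors also deposited a normalized log2 table, which was used as an alternative. The file headers give the build as NCBI37. Here, log2 intensity was quantile normalized within a day, control and outlier spots were left out, and spots were averaged per probe. A probe was tested if its detection p was under 0.05 on at least 60% of the arrays of 1 label. Labels were compared with limma 3.58.1 in R 4.3.3 (lmFit, eBayes), with Benjamini-Hochberg adjustment over all tested probes. The day 7 minus day 0 difference was fitted on probes shared by both designs. The number of arrays limits the precision.

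Members and lists were chosen with earlier results of these data known. Named were the members with the largest differences in each complex, the tissue isoforms, members whose labels did not overlap, and the largest difference of each related list; Ndufs1, Ndufa10, Cox6c, Cox7a2, Cox5b, Cox7b, Cox4i1, Cox6a1, Cox7a2l, Uqcrfs1, Atp5a1, Pkm, Pfkp, Pdhb, Ogdh and, at day 7, Uqcrc1, Ndufaf4 and Pprc1 were added after their values were seen. Giving counts of members and the difference between days without GF WT replicate 5, and naming the arrays whose absence moves a named difference, was chosen after seeing the data. So was naming mtDNA-encoded subunits other than mt-Nd6 at day 7, and members whose probes had mixed signs. GF *Card9*-/- replicates 2 and 2.1 differed about as much as other pairs (SD of the differences 0.852 against a median of 0.907) and were counted as 2 samples. The labels do not say whether they come from separate animals, so p-values at day 7 may treat 1 animal as 2. The alternatives were 75th percentile scaling, normexp (offset 50), the deposited table, other detection filters, the mean over probes, each array left out, and blocks for replicate number, slide and scan session. The test was checked on simulated data. The values of 1 member are counted but not reported here by name.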

Additional observations from a re-analysis of the deposited data

Results flagged for a closer look

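Of 120 groups of 4 to 7 arrays tested with Dixon's criterion, 7 held an array far from the rest of its label, and chance gives about 1 in 20. At day 7, GF *Card9*-/- replicate 2 was lowest for Uqcrq at 16.43, with the others at 16.70 to 16.75. GF *Card9*-/- replicate 4 was highest for Ndufs1 at 14.18, with the others at 13.86 to 13.90. GF WT replicate 5 was highest for Cox6b2 at 7.92 (others 7.58 to 7.64) and lowest in the complex I score at -0.23 (others 0.0056 to 0.027). At day 0, GF WT replicate 6 was highest for Cox8b at 10.27 (others 8.71 to 9.27) and for Ndufv1 at 15.77 (others 15.50 to 15.60). GF *Card9*-/- replicate 5 was highest for Sdhc at 14.22 (others 13.98 to 14.08). No member's difference between labels differed between the days at an adjusted p under 0.05 in limma.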

How the results depend on the processing

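No member passed an adjusted p of 0.05 under any alternative at either day. At day 7, leaving out 1 array gave 52 to 69 members higher in the arrays labelled GF *Card9*-/-, with 52 (median 0.03) without GF WT replicate 5. The medians then ran from 0.03 to 0.13 in complex I, from -0.05 to 0.07 in complex II, from 0.11 to 0.32 in complex III, from 0.02 to 0.15 in complex IV and from 0.06 to 0.20 in the ATP synthase. The replicate block could use only the numbers found under both labels, at day 7 numbers 4 and 6 and so 4 of the 8 arrays, which also leaves out GF WT replicate 5. In that fit 47 of 83 members were higher, and the medians were 0.016 in complex III and -0.012 in the ATP synthase; the signs of Cox6a2 (0.33), Esrrg (0.29), Ndufa4l2 (0.39) and Sdhc (0.082) turned. Whether the numbers pair the samples was not settled (correlations of same-numbered arrays 0.11 and 0.03 at day 7 and -0.02 to 0.37 at day 0). Number 4 at day 7 and number 5 at day 0 were the best match in both directions, and the other numbers were not. Counting GF *Card9*-/- replicates 2 and 2.1 as 1 sample by their mean, an alternative chosen after seeing the data, 62 of 84 members were higher (median 0.11) and 0 had an unadjusted p under 0.05 in limma. With slide as a random block 67 of 84 members were higher at day 7 (median 0.10).

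At day 0, 75th percentile scaling gave 75 of 83 members higher and a complex I median of 0.047. Leaving out 1 array gave 18 to 60, where the arrays left out were GF WT replicates 1 (18), 5 (54) and 6 (60). The replicate block, without GF *Card9*-/- replicate 7, gave 33, slide as a block 23, scan session as a block 34, and the 2 sessions alone 45 and 32. Over all probes, 12 passed at day 0, against 27 with normexp, 22 in the deposited table, 22 with probes well above background, 7 with the replicate block, 1 and 3 in each session alone and 8 to 16 with an array left out.

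Signs of small differences turned in single genes. At day 0 these were Atp5c1-ps (-0.039 in session 1, -0.00088 without the slide of GF WT replicate 6), Cox4i2 (0.0030 with the replicate block, 0.070 in session 2), Cox6a2 (0.014 with normexp, 0.040 in the deposited table, 0.60 in session 2), Cox7a1 (-0.10 without that slide), Dlat (-0.012 in session 1, -0.0025 without that slide) and Uqcrc1 (0.017 with 75th percentile scaling, 0.010 without that slide). At day 7 they were Cox7a1 (-0.0037 with normexp, -0.027 in the deposited table, -0.00055 with GF *Card9*-/- replicates 2 and 2.1 averaged) and Cox7b2 (0.050 and 0.079). With an array left out, the sign turned at least once in 25 of 84 members at day 7 and in 54 of 83 at day 0. Among the genes with the largest differences and the isoforms, the ranges that crossed 0 were -0.0053 to 0.058 for Atp5c1-ps, -0.033 to 0.036 for Cox4i2 (-0.045 without the slide of GF WT replicate 6), -0.30 to 0.24 for Cox6a2 (-0.74 without that slide), -0.062 to 0.011 for Cox6b2, -0.020 to 0.10 for Cox7a1 and -0.045 to 0.015 for Uqcrc1 at day 0, and -0.066 to 0.13 for Cox7a1 and -0.43 to 0.10 for Ndufa4l2 at day 7. Dlat ran from 0.078 to 0.21 with an array left out. The cause was not tested. Dim probes limit Cox6a2, Cox7b2 and Cox8c, for which small signals over background carry little information.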
